A study of Mus musculus with 20 samples.

Results

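Mammary repopulating unit (MRU) is the name for the mouse mammary cells, sorted as CD24-medium CD49f-high, that hold the cells able to rebuild a gland after transplantation. The comparison described here set the MRU cells left outside the CD200+CD200R1+ gate, called remaining MRU below, against CD200R1+ non-MRU cells, which lay outside the MRU gate and were CD200-negative and CD200R1-positive. Each side had 5 libraries, from mice 2 to 6, so 10 of the study's 20 libraries entered the comparison. The other 10 libraries, 5 of CD200+CD200R1+ MRU and 5 of CD200+ CD200R1-negative non-MRU, helped to estimate the spread. The CD200+CD200R1+ MRU were also tested directly against the remaining MRU, and summed marker levels are shown for all populations. All cells came from the fourth inguinal glands of virgin FVB/N females aged 6 to 8 weeks, were freed of lineage-positive cells by a mammary enrichment kit, and were sorted at 1000 cells per library. The labels name no treatment and no engineered allele. Polyadenylated RNA was amplified with SMART-Seq V4. The label of the remaining MRU does not say whether they were negative for both markers or only outside the double-positive gate. In the CD200R1+ non-MRU library of mouse 4, about 10% of the cells were added from mouse 3.

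A virgin mammary duct is a bilayer: an inner layer of luminal cells and an outer layer of basal or myoepithelial cells, which contract around alveoli under oxytocin and sit on a basement membrane. Around it lies a stroma of fibroblasts, adipocytes, vessels and immune cells, and fibroblasts make most of the fibrillar collagen and several growth factors that act on epithelial receptors. CD49f is the integrin alpha 6 chain that anchors basal cells to laminin, and CD24 marks mammary epithelium. CD200 is a surface glycoprotein, and its partner CD200R1, known best from myeloid cells, is an inhibitory receptor.

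The 10 libraries held 10853587 to 12904974 counts, so that 3 counts stood for 0.232 to 0.276 counts per 1000000 (CPM). Levels below are CPM scaled by TMM factors, which were 1.037 to 1.067 in the remaining MRU and 0.766 to 0.855 in the CD200R1+ non-MRU, and the 10 most abundant genes took 7.67 to 8.97% of counts in the first and at least 11.3% in each library of the second. The test was edgeR's quasi-likelihood test with Benjamini-Hochberg adjustment over 17236 genes, and a gene was called at an adjusted p below 0.05. By it 7596 genes (44.1%) differed, 3868 of them higher (22.4%) and 3728 lower (21.6%) in the remaining MRU. The 5 libraries of one side did not overlap those of the other for 2869 genes that were higher (16.6%) and 2627 that were lower (15.2%). In all 5 mice the remaining MRU library was the higher one for 4089 genes (23.7%) and the lower one for 3707 (21.5%). Every count of list members below is to be read against these shares. Per the median, a gene's log2 fold change (remaining MRU over CD200R1+ non-MRU) was 0.025, and it was 0.407 with library size alone as the scale.

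The sort markers separated the populations at the RNA level, except for Cd200r1. Itga6, which encodes CD49f, read 1015, 739, 854, 732 and 731 CPM in the remaining MRU libraries of mice 2 to 6 and 14.7, 7.52, 5.68, 14 and 6.19 in the CD200R1+ non-MRU libraries of the same mice (log2 fold change 6.41 ± 0.27 (SE), adjusted p = 8.43e-14). Cd24a stood at 799.6, 689, 623, 681 and 594 CPM against 23.9, 36.4, 16.7, 7.85 and 12.3 (log2 fold change 5.13 ± 0.32 (SE), adjusted p = 2.93e-11). In both genes every remaining MRU library lay far above every CD200R1+ non-MRU library. Cd200, although the remaining MRU had been sorted outside the CD200+CD200R1+ gate, read 172, 196, 203, 225 and 196 CPM there and 2.83, 4.28, 1.77, 6.04 and 2.74 in the CD200R1+ non-MRU (log2 fold change 5.81 ± 0.25 (SE), adjusted p = 1.37e-13). It was also higher than in the CD200+CD200R1+ MRU, where it averaged 101 ± 18.9 CPM (SD, n = 5; log2 fold change 0.97 ± 0.20 (SE), adjusted p = 0.0023). Cd200r1 transcripts were near the detection limit on both sides: 0, 0.72, 1.9, 4.13 and 1.33 CPM in the remaining MRU and 1.96, 0.835, 1.21, 0 and 0.304 in the CD200R1+ non-MRU, overlapping and not called (adjusted p = 0.378). No read was counted for it in the mouse 2 library of the remaining MRU and the mouse 5 library of the CD200R1+ non-MRU, where a count of 0 allows a level of up to 0.251 and 0.232 CPM by library size.

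**Figure D1:**
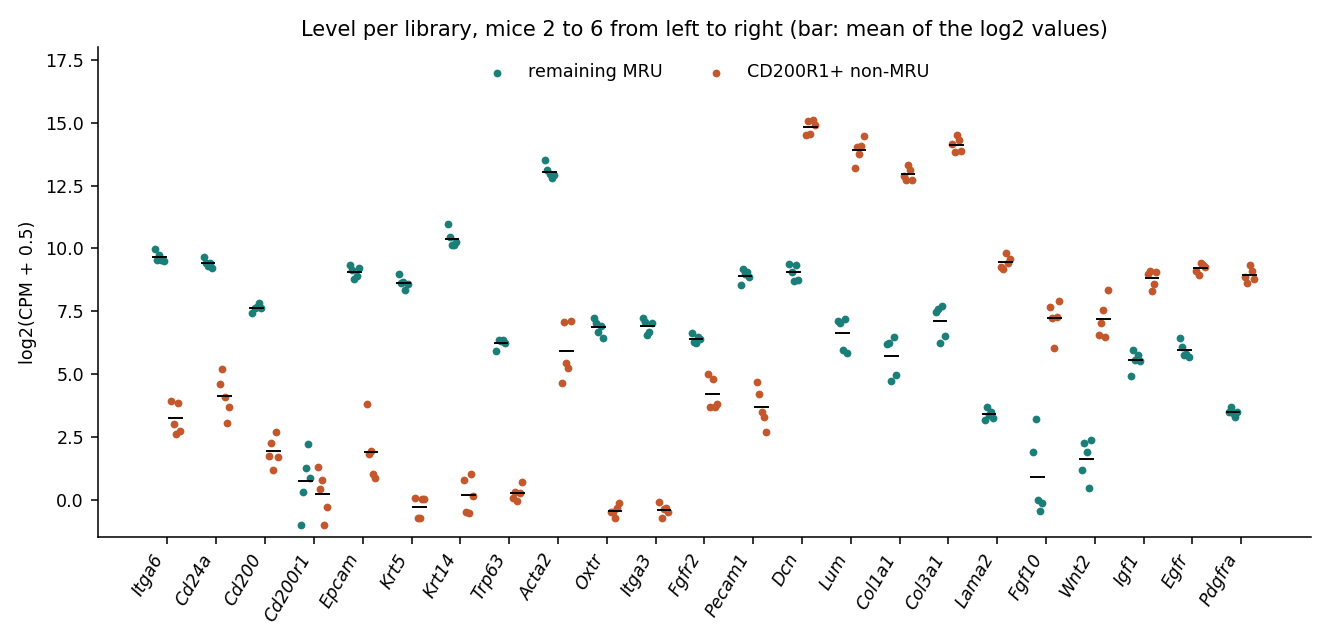
Level of 23 genes in each library as log2(CPM + 0.5), with the remaining MRU in green and the CD200R1+ non-MRU in orange, mice 2 to 6 from left to right in each cluster of points, and the mean of the log2 values as a bar. Cd200r1 is the gene whose points overlap between the populations near the floor of the scale, while basal genes such as Krt14 and fibroblast genes such as Lum lie apart in opposite directions.

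The labels call all samples epithelial. By RNA, epithelial genes were high in the remaining MRU and low in the CD200R1+ non-MRU. The remaining MRU also held endothelial markers, whose summed levels are given with the vessel genes. Epcam, an epithelial adhesion protein, averaged 540.3 ± 82.5 CPM (SD, n = 5) in the remaining MRU and 4.52 ± 5.04 in the CD200R1+ non-MRU, where the luminal keratin Krt8 averaged 5.92 ± 7.9. The CD200R1+ non-MRU carried instead the fibroblast list, whose 28 members summed to 56600, 83310, 55370, 83210 and 82700 CPM in mice 2 to 6, against 3208, 3476, 3112, 3307 and 3093 CPM in the remaining MRU. Of the lineage depletion markers, Pecam1 (CD31) averaged 486 against 13.8 CPM and Ptprc (CD45) 138 against 116, remaining MRU first, while Enpep (BP-1) averaged 28.8 against 254. Pecam1 was called higher and Enpep lower (adjusted p = 2.92e-09 and 5.55e-08), and Ptprc was not called (adjusted p = 0.351). In bulk samples such as these, fewer cells of a type and less RNA per cell cannot be told apart, which applies to every gene below. Without the CD200R1+ non-MRU library of mouse 2, the log2 fold changes were 7.86 for Epcam and 7.46 for Krt8.

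Genes of the basal layer set the remaining MRU apart by the widest margins. Of the 22 members of the basal identity list, all of which passed the filter on low counts, 19 were higher, 3 lower and 0 not called (median log2 fold change 6.38, against 0.025 over all genes). Krt14, the keratin that fills the basal cytoskeleton with its partner Krt5, read 2014, 1385, 1107, 1137 and 1216 CPM in the remaining MRU and 1.2, 0.209, 0.186, 1.51 and 0.609 in the CD200R1+ non-MRU (log2 fold change 10.85 ± 0.68 (SE), adjusted p = 3.06e-11). Krt5 read 508, 396, 399.7, 321 and 386 CPM against 0.544, 0.104, 0.093, 0.503 and 0.507 (log2 fold change 10.14 ± 0.55 (SE), adjusted p = 3.44e-12). Neither keratin exceeded 2 CPM in any CD200R1+ non-MRU library. Mouse 2 had the highest remaining MRU level of both. Krt17, another basal keratin, averaged 1546 ± 573 CPM (SD, n = 5) against 0.653 ± 0.198 (log2 fold change 11.19 ± 0.58 (SE), adjusted p = 1.74e-12). Krt14, Krt17 and Krt42 lie in one cluster of similar genes, so the split of reads among them is uncertain, and no CD200R1+ non-MRU library had a count for Krt42, which makes it at least 237-fold higher by a floor of 3 counts over the population. Trp63, the transcription factor p63 that basal cells need, read 59.6, 80.8, 79.2, 81.2 and 75.1 CPM against 0.544, 0.731, 0.465, 0.704 and 1.12 (log2 fold change 6.71 ± 0.34 (SE), adjusted p = 1.31e-12), with no overlap.

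Further basal genes followed the same split. Il17b, an interleukin 17 family cytokine, averaged 356 ± 76.7 CPM (SD, n = 5) in the remaining MRU and 0.148 ± 0.162 in the CD200R1+ non-MRU (log2 fold change 11.19 ± 0.56 (SE), adjusted p = 1.23e-12). Serpinb5 (maspin), a serpin of myoepithelial cells, averaged 308 against 0.333 CPM (log2 fold change 9.84 ± 0.30 (SE), adjusted p = 1.64e-15). Sox10, a transcription factor shared by basal mammary and Schwann cells, averaged 22.4 against 0.513 CPM, and the P-cadherin gene Cdh3 averaged 24.9 against 0.149. Among the most unequal genes outside the list were Col9a2 (a chain of collagen IX), Tmem255b, Chil1 (a chitinase-like protein) and Cytl1 (a small secreted protein). Col9a2 averaged 112 CPM in the remaining MRU and had 1 count in all CD200R1+ non-MRU libraries together, a ratio of 5570 (exact 95% interval 999 to 220000). Tmem255b had none, against 29.3 CPM, and was at least 481-fold higher by the floor of 3 counts. Chil1 averaged 585 against 0.515 CPM and Cytl1 94.1 against 0.0812. In the CD200+CD200R1+ MRU, Tmem255b averaged 0.627 and Cytl1 4.54 CPM, both lower than in the remaining MRU (adjusted p = 4.08e-07 and 0.00366). Col9a2 and Chil1 averaged 166 and 827 CPM there and were not called between the MRU populations (adjusted p = 0.17 and 0.372). The basal list was not uniform: Egfr, the receptor of EGF and amphiregulin, read 85.3, 66.8, 53.2, 54.4 and 50.3 CPM in the remaining MRU and 549.5, 492, 680.2, 639 and 609.5 in the CD200R1+ non-MRU (log2 fold change -3.26 ± 0.24 (SE), adjusted p = 2.41e-10), so all 5 CD200R1+ non-MRU libraries were higher. Ngfr (p75) and Pdpn (podoplanin), also counted among basal markers, were lower too, at 1.07 against 11.9 and 107 against 176 CPM (log2 fold change -3.46 and -0.72). The call of Pdpn was lost with library size alone (log2 fold change -0.34). Leaving out the CD200R1+ non-MRU library of mouse 2 gave log2 fold changes of 7.13 for Sox10 and 8.19 for Cdh3. With the CD200R1+ non-MRU library of mouse 6 left out, the log2 fold changes were 13.45 for Col9a2, 13.19 for Cytl1 and -2.40 for Ngfr.

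The contractile apparatus of myoepithelium was higher in the remaining MRU as a group. Of the 19 members of the contraction list, 16 were higher, 0 lower and 3 not called (median log2 fold change 4.12). Acta2, smooth muscle actin, read 11570, 8973, 7869, 7076 and 7802 CPM in the remaining MRU and 24.7, 134, 43.3, 37.3 and 137 in the CD200R1+ non-MRU (log2 fold change 6.84 ± 0.49 (SE), adjusted p = 1.87e-10). It was the gene with the widest difference in mean CPM in this direction, and the libraries did not overlap. Oxtr, the oxytocin receptor that triggers milk ejection, read 151, 131, 100.1, 121 and 85 CPM against 0.218, 0.209, 0.093, 0.302 and 0.406 (log2 fold change 8.86 ± 0.40 (SE), adjusted p = 2.18e-13). Myh11, the smooth muscle myosin heavy chain, averaged 884 ± 181 CPM against 4.83 ± 3.62 (SD, n = 5; log2 fold change 7.52 ± 0.49 (SE), adjusted p = 4.99e-11). The myosin light chain kinase Mylk averaged 662 against 38 CPM and the light chain Myl9 2090 against 168. Against the CD200+CD200R1+ MRU, where it averaged 1117 CPM, Mylk was lower (adjusted p = 0.0381), and 2 members of the list, Des (desmin) and Mrtfb (a cofactor of Srf, listed as Mkl2 in the deposited table), were higher, at 37.5 against 5.93 and 53.2 against 23.8 CPM (adjusted p = 0.00361 and 7.73e-05). Over all genes tested, 6.64% were higher and 1.62% lower than in the CD200+CD200R1+ MRU. Tagln and Tpm2, which bind actin filaments, averaged 3582 against 59.2 and 2723 against 88.5 CPM, remaining MRU against CD200R1+ non-MRU. The members not called were Cald1 (caldesmon) at 767 against 541 CPM, the transcription factor Srf at 32.8 against 23.9 and its cofactor Myocd at 2 against 0.847, with adjusted p of 0.0569, 0.063 and 0.152. With the mouse as a replicate block all of these were called higher (log2 fold change 0.50 for Cald1, 0.50 for Srf and 1.69 for Myocd). Cald1 was also called higher in every other alternative that kept all libraries of the comparison. Srf was called with library size alone, DESeq2, voom and a filter of at least 1 CPM in 5 libraries. Myocd was called with library size alone, voom and the block in these libraries alone. Leaving out a single library gave a call as well: for Cald1 without the remaining MRU library of mouse 4 or 5 or the CD200R1+ non-MRU library of mouse 4 (0.58 to 0.60), for Srf without the remaining MRU library of mouse 4 or the CD200R1+ non-MRU library of mouse 2 or 5 (0.53 to 0.59), and for Myocd without the CD200R1+ non-MRU library of mouse 3 (2.69). Actg2 encodes a protein nearly identical to that of Acta2, so reads shared by the pair are uncertain. A fit that lacked the CD200R1+ non-MRU library of mouse 2 gave a log2 fold change of 2.81 for Des. When the CD200R1+ non-MRU library of mouse 3 was left out, the log2 fold change was 6.50 for Actg2.

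Many contractile genes are known to carry a binding site of Srf, the CArG box, near their start, and for this reason the promoter windows of the list were searched. RefSeq windows on GRCm38.p6, from 250 bases before to 50 after each start, were given for 15 of the 19 members. A CArG box (both strands, read by its name as the pattern reads the same on either) was in the windows of 2 of the 15 genes (13.3%), Myl9 and Srf itself, against 488 of 27025 genes (1.81%). Among genes called with at least a 2-fold difference it was in 49 of 1803 that were higher (2.72%) and 19 of 1414 that were lower (1.34%), against 187 of 11292 tested genes (1.66%). TATAAA, on both strands, was in 2 of the 15 genes against 15.7% of all genes, and CACGTG in 2 against 8.09%. Among tested genes the shares were 9.4% for TATAAA and 11.1% for CACGTG. The search asked for CC, a core of A and T alone, and GG. Windows of other members, Acta2 among them, hold no exact match. That says nothing of sites elsewhere or of boxes within these windows that have another base in the core. The windows with a CArG box, with the box in capitals, are given 5′ to 3′ on the strand of the gene.
Myl9, GRCm38.p6, chr2:156775214-156775513, plus strand, box 161 bases before the start: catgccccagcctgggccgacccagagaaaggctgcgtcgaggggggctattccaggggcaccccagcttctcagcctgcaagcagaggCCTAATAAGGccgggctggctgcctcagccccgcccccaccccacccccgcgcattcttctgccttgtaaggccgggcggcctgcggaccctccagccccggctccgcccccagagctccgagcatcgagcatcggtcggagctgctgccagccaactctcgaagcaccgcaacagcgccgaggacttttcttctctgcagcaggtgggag
Srf, GRCm38.p6, chr17:46556113-46556412, minus strand, boxes 82 and 62 bases before the start: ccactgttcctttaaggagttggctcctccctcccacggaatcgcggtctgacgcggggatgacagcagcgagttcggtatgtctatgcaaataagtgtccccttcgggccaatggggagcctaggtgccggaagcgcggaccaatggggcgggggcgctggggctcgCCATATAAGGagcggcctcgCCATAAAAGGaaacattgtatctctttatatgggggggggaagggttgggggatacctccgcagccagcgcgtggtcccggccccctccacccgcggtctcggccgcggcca
The genes that carry these windows behaved differently. Myl9 read 2627, 2017, 1956, 1987 and 1861 CPM in the remaining MRU and 139, 197, 89.7, 231 and 184 in the CD200R1+ non-MRU, without overlap (log2 fold change 3.63 ± 0.23 (SE), adjusted p = 3.97e-11). Srf read 29.8, 41.4, 28.4, 32.1 and 32.4 against 32.5, 24.6, 21, 28.6 and 12.8, with overlap (log2 fold change 0.46 ± 0.20, SE).

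Cell junctions and the regulators of epithelial identity were higher with few exceptions. Of the 30 members of the junction and polarity list, 29 passed the filter and all 29 of these were called higher (median log2 fold change 3.68). Cdh1, E-cadherin, read 75.7, 58.6, 63.5, 57.1 and 62.3 CPM in the remaining MRU and 0.871, 0.209, 0.093, 0.101 and 0.203 in the CD200R1+ non-MRU (log2 fold change 7.75 ± 0.34 (SE), adjusted p = 1.69e-13). Perp, a desmosome protein, averaged 458 ± 56.1 CPM against 0.754 ± 0.616 (SD, n = 5; log2 fold change 9.26 ± 0.47 (SE), adjusted p = 1.41e-12). Crb3, which sets the apical pole, had no count in the CD200R1+ non-MRU and averaged 7.36 CPM in the remaining MRU, at least 121-fold higher by the floor of 3 counts. Of 17 tested regulators of epithelial fate, 16 were higher (median 5.05) and Grhl1 was not called (6.6 against 4.28 CPM) except without the CD200R1+ non-MRU library of mouse 2 (log2 fold change 1.02) and with library size alone (0.99). Grhl2, a transcription factor of epithelial junction genes, averaged 20.3 against 0.141 CPM, the splicing regulator Esrp1 36.4 against 0.361 and Elf3 24.6 against 0.148. The fit without the CD200R1+ non-MRU library of mouse 2 gave log2 fold changes of 8.63 for Cdh1, 7.83 for Esrp1 and 8.18 for Elf3.

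Many luminal genes were also higher in the remaining MRU, although its gate is the basal one. Among 24 luminal progenitor and alveolar genes, 19 were higher, 1 lower and 4 not called (median log2 fold change 5.62). Csn3, kappa-casein of milk, read 850.5, 2245, 1216, 1263 and 2463 CPM against 9.58, 6.89, 1.68, 6.44 and 6.09 (log2 fold change 8.04 ± 0.50 (SE), adjusted p = 2.16e-11), and Lalba, which makes lactose synthase with its partner enzyme, averaged 226 ± 125 CPM against 0.599 ± 0.382 (SD, n = 5; log2 fold change 8.56 ± 0.66 (SE), adjusted p = 7.31e-10). The spread of both within the remaining MRU was wide, with mouse 2 lowest and mouse 6 highest. Lcn2, lipocalin 2, read 5359, 4093, 2602, 3557 and 4106 CPM against 19.4, 4.39, 11.9, 2.31 and 3.75 (log2 fold change 8.88 ± 0.54 (SE), adjusted p = 1.66e-11). The luminal keratins Krt8 and Krt18 averaged 435 against 5.92 and 688 against 11.9 CPM, Kit 16.6 against 2.12 and Elf5, the alveolar fate factor, 8.11 against 0.204. Lif was lower (5.34 against 13.7 CPM), as were 2 members without the CD200R1+ non-MRU library of mouse 4 or 6, and Aldh1a3 was among those not called (5.89 against 7.96 CPM). The hormone-sensing list divided: of 20 tested, 8 were higher, 6 lower and 6 not called (median 0.83). Foxa1, a partner of the estrogen receptor, averaged 6.14 CPM and had 2 counts in the CD200R1+ non-MRU, a ratio of 152 (exact 95% interval 41.7 to 1256). Areg (amphiregulin) and Prlr (the prolactin receptor) were higher, at 83.7 against 2.36 and 72.9 against 10.1 CPM, whereas Esr1, the estrogen receptor, read 12.5, 8.23, 8.08, 11 and 12.4 CPM against 58.9, 62.6, 35.5, 59.1 and 18.7 and was lower in every mouse (log2 fold change -2.17 ± 0.32 (SE), adjusted p = 9.74e-06). Greb1 and S100a6 were lower with it, at 0.995 against 13.3 and 665 against 2553 CPM. Once the CD200R1+ non-MRU library of mouse 2 was removed, the log2 fold changes were 7.46 for Krt8 and 6.78 for Krt18.

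**Figure D2:**
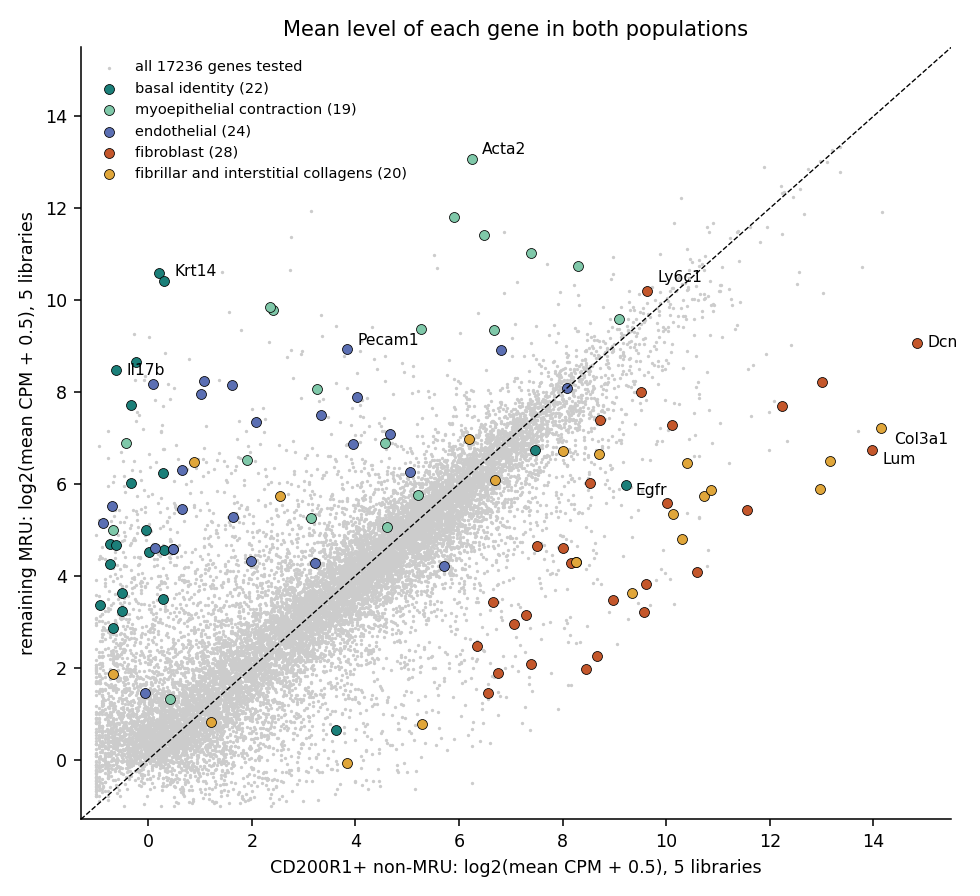
Mean level of each of 17236 tested genes as log2(mean CPM + 0.5) in the CD200R1+ non-MRU (horizontal) and the remaining MRU (vertical), 5 libraries each, with members of 5 lists coloured and the dashed line marking equal levels. Basal, contraction and endothelial members lie above the line, apart from a few such as Egfr, and fibroblast and collagen members below it, apart from Ly6c1 and 4 collagens.

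Genes of fibroblasts and their matrix were the other pole. Of 28 fibroblast genes, 27 were lower in the remaining MRU, all without overlap, and only Ly6c1 was higher (1179 against 791 CPM), a gene with near-identical neighbours whose reads are uncertain (median log2 fold change -4.49). Dcn, decorin, which binds collagen fibrils, read 663, 529, 416, 649.8 and 426 CPM in the remaining MRU and 23060, 33970, 23760, 35620 and 30970 in the CD200R1+ non-MRU (log2 fold change -5.78 ± 0.26 (SE), adjusted p = 1.70e-13), the widest difference in mean CPM of any gene under the naming rule. Lum, lumican, a proteoglycan of the same family, read 137, 129, 61.4, 144 and 57.2 CPM against 9471, 16960, 13660, 17170 and 23010 (log2 fold change -7.25 ± 0.41 (SE), adjusted p = 6.33e-12). For both genes the lowest CD200R1+ non-MRU library was in mouse 2. Pdgfra, the receptor that marks mesenchyme, averaged 10.6 ± 1.09 CPM against 499 ± 101 (SD, n = 5; log2 fold change -5.55 ± 0.23 (SE), adjusted p = 8.19e-14). Serpinf1 (a secreted serpin) and Gsn (gelsolin) averaged 208 against 4846 and 296 against 8199 CPM. Thy1, Entpd2 and Dpp4, surface proteins of fibroblasts, averaged 7.27 against 133, 8.38 against 156 and 10.3 against 100.4.

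Most interstitial matrix genes were lower too. Among 20 interstitial collagen genes, 4 were higher, 14 lower and 2 not called (median log2 fold change -4.41). Col1a1 read 72.5, 75.6, 25.5, 88.3 and 30.7 CPM in the remaining MRU and 7637, 6675, 10260, 8906 and 6678 in the CD200R1+ non-MRU (log2 fold change -7.10 ± 0.40 (SE), adjusted p = 5.03e-12). Col3a1 read 176, 192, 75, 206 and 90 CPM against 18040, 14430, 23500, 20220 and 14960 (log2 fold change -6.95 ± 0.36 (SE), adjusted p = 1.51e-12). In both fibrillar collagens the remaining MRU libraries of mice 4 and 6 were the lowest, and no libraries overlapped. Col1a2 averaged 90 against 9133 CPM, Col6a3 87.4 against 1351 and Col5a1, which starts fibrils, 40 against 1123. The collagens that were higher were Col8a1 (87.9 against 1.35 CPM), Col11a1 (52.7 against 5.33), Col16a1 (125 against 72.9) and Col2a1 (3.14 against 0.126). Of 31 matrix glycoproteins and proteoglycans, 3 were higher, 24 lower and 4 not called (median -2.99). Fn1, fibronectin, averaged 122 against 5130 CPM, Postn, periostin, 1693 against 14090 and Sparc 3860 against 18290. Fmod, fibromodulin, went the other way within the proteoglycan family that holds Dcn and Lum, at 93.4 ± 25.7 CPM against 2.93 ± 1.67 (SD, n = 5; log2 fold change 4.98 ± 0.63 (SE), adjusted p = 1.01e-06), as did Prelp (147 against 46.1) and Fbln5 (365 against 202), an elastic fibre protein. Eln, elastin, was not called (201 against 243 CPM, adjusted p = 0.413). Removing the CD200R1+ non-MRU library of mouse 3 gave a log2 fold change of 7.04 for Col8a1.

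Most matrix proteases and their inhibitors were lower as well. Of 23 proteases and inhibitors, 4 were higher, 15 lower and 4 not called (median log2 fold change -3.68). Mmp3, stromelysin, read 19.1, 5.12, 0, 24.1 and 1.67 CPM against 557, 1043, 1014, 2265 and 838 (log2 fold change -6.83 ± 0.87 (SE), adjusted p = 1.15e-06), with mouse 5 highest on both sides. Mmp2 and Mmp14, a gelatinase and the membrane protease that activates it, averaged 159 against 2107 and 57.3 against 736 CPM. Timp1, an inhibitor, averaged 28.5 against 443 CPM, but its relatives Timp3 and Timp4 were higher in the remaining MRU, at 402 against 226 and 21.1 against 1.06, and so were Adamts9 (331 against 53.9) and Adamts18 (58.7 against 13). Among the most unequal genes of any kind in this direction, Kera, keratocan of the Dcn and Lum family, read 0.873, 0.16, 0, 0 and 0 CPM against 43.3, 51.4, 64.2, 150.3 and 69.9 (log2 fold change -8.45 ± 1.17 (SE), adjusted p = 3.72e-06). Bmper, a BMP-binding protein, averaged 1.63 against 241 CPM, Crabp1, a retinoic acid carrier, 1.06 against 165, Adamts19 0.146 against 35.2, Frem1 1.24 against 148, Ssc5d 0.775 against 95.8 and Igsf21 0.175 against 21.7. Without the CD200R1+ non-MRU library of mouse 2, the log2 fold change was 5.23 for Timp4. Leaving out the CD200R1+ non-MRU library of mouse 4 gave a log2 fold change of -6.57 for Crabp1. With the remaining MRU library of mouse 2 left out, the log2 fold change was -10.53 for Kera. A fit that lacked the remaining MRU library of mouse 3 gave a log2 fold change of -9.47 for Igsf21.

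The basement membrane and its receptors divided by chain rather than moving as a block. Of 29 genes of this list, 15 were higher, 9 lower and 5 not called (median log2 fold change 0.44). Itga3, the laminin-binding integrin alpha 3 chain, read 148, 135, 91.9, 102 and 129 CPM in the remaining MRU and 0.436, 0.104, 0.279, 0.302 and 0.203 in the CD200R1+ non-MRU (log2 fold change 8.79 ± 0.28 (SE), adjusted p = 1.65e-15). Col17a1, the transmembrane collagen of hemidesmosomes, read 171, 127, 145, 129 and 138 CPM against 0.218, 0.104, 0.093, 0 and 0 (log2 fold change 10.60 ± 0.61 (SE), adjusted p = 7.47e-12), and Itgb4, partner of Itga6 there, averaged 38.7 against 1.38 CPM. Itgb1, the beta chain shared by most integrins, averaged 687 against 607 CPM and was not called (adjusted p = 0.339). Among laminin alpha chains, Lama1, Lama3 and Lama5 averaged 93 against 0.98, 141 against 0.683 and 80.3 against 1.4 CPM, all higher in the remaining MRU. Lama4 averaged 49.9 against 275 CPM and Lama2, the chain of muscle and stromal basement membrane, read 8.57, 12.2, 9.89, 10.6 and 8.92 against 609, 573, 909, 674 and 760.4 (log2 fold change -6.13 ± 0.31 (SE), adjusted p = 1.33e-12), so both were lower without overlap. Of the partner chains, Lamb3 was higher (89.7 against 2.25 CPM) and Lamb1 and Lamc1 lower (157 against 678 and 226 against 782). Collagen IV divided in the same manner: Col4a5 and Col4a6, which lie head to head on the X chromosome, were higher (136 against 11 and 58.2 against 0.449 CPM), and Col4a1 and Col4a2 lower (868 against 1642 and 509 against 867). The call of Col4a2 was lost with library size alone. Nid1, nidogen, which links laminin to collagen IV, averaged 118 against 1888 CPM and Hspg2, perlecan, 24.6 against 94.1, both lower. When the CD200R1+ non-MRU library of mouse 2 was left out, the log2 fold changes were 11.21 for Col17a1 and 8.30 for Col4a6.

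**Figure D3:**
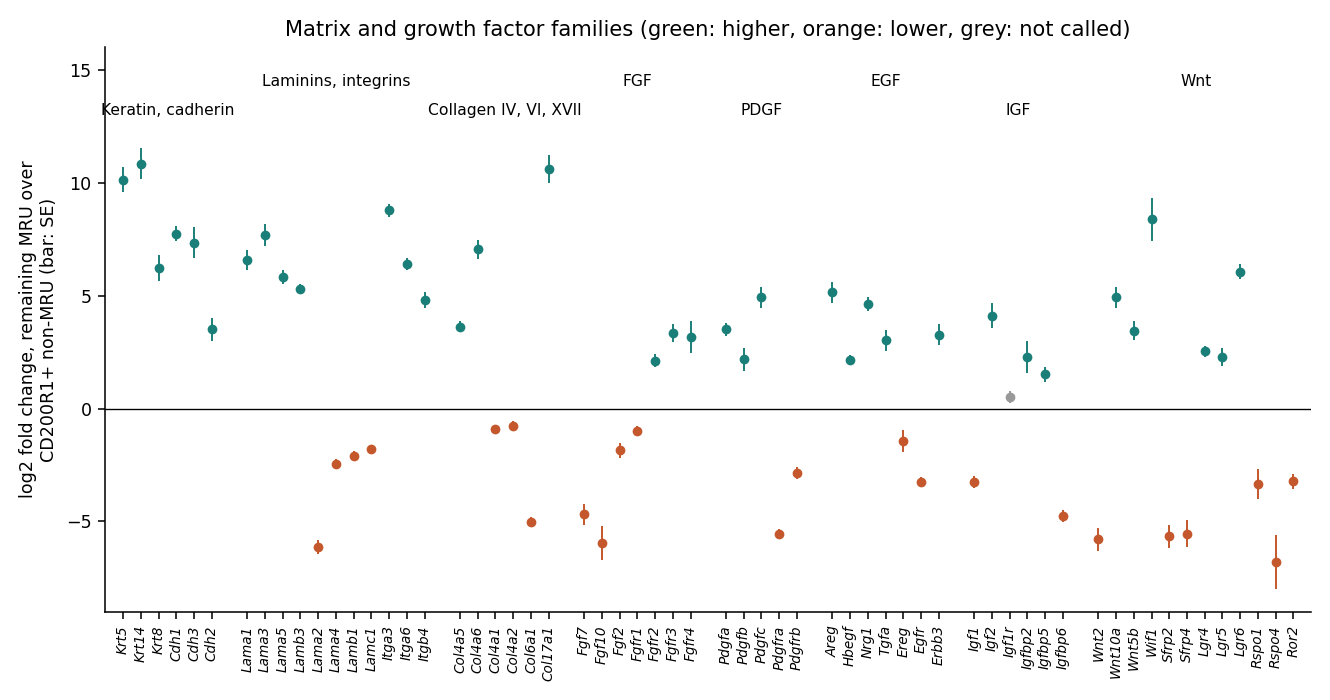
Log2 fold change (remaining MRU over CD200R1+ non-MRU, bar: SE) of 60 genes from 8 families, green where called higher, orange where called lower and grey where not called. Within each family except keratins and cadherins, members lie on both sides of 0: Fgf10 at -5.95 and Fgfr2 at 2.13, Lama2 at -6.13 and Itga3 at 8.79.

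Growth factor ligands and their receptors often lay on opposite sides of the comparison. Of 18 tested FGF genes, 7 were higher, 9 lower and 2 not called. Fgf10, a stromal ligand needed for mammary bud growth, read 3.25, 8.71, 0.495, 0.222 and 0.417 CPM in the remaining MRU and 204, 148, 65.5, 153 and 240.1 in the CD200R1+ non-MRU (log2 fold change -5.95 ± 0.75 (SE), adjusted p = 9.79e-07). Its receptor Fgfr2 read 97.7, 77.8, 75.2, 88.8 and 83 CPM against 31.1, 12.2, 27.4, 12.5 and 13.4 (log2 fold change 2.13 ± 0.28 (SE), adjusted p = 2.19e-06). The ligand was thus lower and the receptor higher in every mouse. Fgf7, which binds the same receptor, averaged 3.77 against 96.4 CPM, Fgfr1 was lower (196 against 385) and Fgfr3 higher (19 against 1.87). In the PDGF group the ligands Pdgfa and Pdgfc were higher, at 74.2 against 6.52 and 103 against 3.4 CPM, and the receptors Pdgfra and Pdgfrb lower, at 10.6 against 499 and 24.8 against 180.5. Kit and its ligand Kitl were both higher (16.6 against 2.12 and 533 against 167 CPM). Csf1, the macrophage growth factor, was lower (59 against 543 CPM), and its receptor Csf1r was not called (43.1 against 64.8, adjusted p = 0.24). Over the 12 genes of this list, 5 were higher, 5 lower and 2 not called. In the EGF family the ligands Areg, Nrg1, Hbegf and Tgfa were higher, at 83.7 against 2.36, 56 against 2.26, 575 against 129 and 30.5 against 3.79 CPM, whereas Egfr was lower (62 against 594) and Erbb2 not called (6.58 against 6.58); of 17 tested, 6 were higher, 5 lower and 6 not called, and the lower count was 2 with library size alone and 3 without the remaining MRU library of mouse 3, 5 or 6. Once the CD200R1+ non-MRU library of mouse 2 was removed, the log2 fold change was 3.62 for Tgfa. Removing the remaining MRU library of mouse 3 gave a log2 fold change of -7.15 for Fgf10.

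Along the IGF axis, Igf1 read 29.8, 62.3, 46.5, 52.9 and 45.7 CPM against 501, 545, 311, 387 and 534 (log2 fold change -3.26 ± 0.27 (SE), adjusted p = 2.62e-09), and Igf2, the fetal growth factor, was the reverse, averaging 48.2 ± 10.6 CPM in the remaining MRU and 2.78 ± 1.6 in the CD200R1+ non-MRU (SD, n = 5; log2 fold change 4.12 ± 0.55 (SE), adjusted p = 2.43e-06). The receptor Igf1r averaged 11 against 7.85 CPM and was not called, although it was without the CD200R1+ non-MRU library of mouse 2 (log2 fold change 0.71). H19, the non-coding RNA imprinted opposite to Igf2, averaged 2.09 against 111 CPM, lower, so these neighbours on chromosome 7 moved apart. The binding proteins divided as well: Igfbp2 (303 against 62.3 CPM) and Igfbp5 (1405 against 490.4) were higher, Igfbp4 (321 against 845) and Igfbp6 (87.3 against 2384) lower and Igfbp7 not called (1021 against 1280). Over the 16 genes of the list, 5 were higher, 7 lower and 4 not called. Insr, the insulin receptor, averaged 41.5 against 19.7 CPM and Ghr, the growth hormone receptor, 68 against 180.0, higher and lower in that order. Without the CD200R1+ non-MRU library of mouse 3, the log2 fold change was 2.92 for Igfbp2. Leaving out the remaining MRU library of mouse 2 gave a log2 fold change of -6.45 for H19.

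Wnt ligands differed in both directions. Wnt2 read 1.75, 4.24, 3.22, 0.886 and 4.67 CPM in the remaining MRU and 92.1, 130.0, 184, 89.2 and 323 in the CD200R1+ non-MRU (log2 fold change -5.80 ± 0.52 (SE), adjusted p = 7.82e-09), without overlap. Wnt10a, Wnt6, Wnt5b and Wnt7b were higher in the remaining MRU, at 23 against 0.742, 9.59 against 0.58, 13.4 against 1.21 and 3.03 against 0.164 CPM, and Wnt5a was not called (26.6 against 21.1) except with library size alone and without the CD200R1+ non-MRU library of mouse 5 (log2 fold change 0.46). Of 11 tested ligands, 4 were higher, 4 lower and 3 not called, and the lower count was 2 with library size alone, with voom, in fits to these libraries alone and without single libraries of the remaining MRU (mouse 3, 4 or 5) or the CD200R1+ non-MRU (mouse 3 or 4). The receptors of R-spondin, which raise Wnt receptor levels, were higher: Lgr6 averaged 79.6 ± 19.4 CPM against 1.17 ± 0.747 (SD, n = 5; log2 fold change 6.07 ± 0.32 (SE), adjusted p = 1.74e-12), Lgr4 46.7 against 7.98 and Lgr5 22.4 against 4.55. Their ligands Rspo1 and Rspo4 were lower (1.13 against 11.6 and 0.0965 against 11.7 CPM). Over 23 receptors and R-spondins, 9 were higher, 8 lower and 6 not called. Rspo3, called lower, lost the call with library size alone, voom, no filter, both fits with a mouse block and these libraries alone. It also lost it without the remaining MRU library of mouse 2, 3, 4 or 5 or the CD200R1+ non-MRU library of mouse 2 or 3. With library size alone, Znrf3, Lrp5 and Fzd5 were called higher as well. The secreted antagonists separated by member: Wif1 and Sostdc1 averaged 146 against 0.43 and 51.4 against 0.679 CPM, while Sfrp2 and Sfrp4 averaged 6.99 against 355 and 6.03 against 283. Axin2, a general target of the pathway, was not called (3.88 against 3.19 CPM, adjusted p = 0.573). Over 17 antagonists and targets, 4 were higher, 7 lower and 6 not called, and the higher count was 7 with library size alone. With the CD200R1+ non-MRU library of mouse 4 left out, the log2 fold change was -2.50 for Rspo1. A fit that lacked the CD200R1+ non-MRU library of mouse 5 gave log2 fold changes of 9.10 for Wif1 and 6.80 for Sostdc1. When the remaining MRU library of mouse 2 was left out, the log2 fold change was -7.83 for Rspo4. The fit without the remaining MRU library of mouse 4 gave a log2 fold change of -4.01 for Rspo1.

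Notch genes were mostly higher, and Hedgehog genes mostly lower, in the remaining MRU. Of 21 Notch genes, 13 were higher, 1 lower and 7 not called (median log2 fold change 1.39). Dll1, a ligand, read 117, 66.4, 67, 68.6 and 75.2 CPM against 0.218, 0.731, 0.279, 0.101 and 0.203 (log2 fold change 7.97 ± 0.54 (SE), adjusted p = 8.76e-11), Jag2 averaged 31.6 against 0.475 CPM and the target Hey1 76.8 against 6.57. Notch1, Notch3 and Notch4 were higher, at 59.1 against 22.5, 37 against 8.01 and 17.5 against 0.714 CPM, and Notch2 was the one member lower (13.1 against 56), a count that was 2 without the CD200R1+ non-MRU library of mouse 2 or 3. Dll4 and Notch4 are known from endothelium, whose markers were higher in the same libraries (summed levels are given with the vessel genes), and their part in this was not tested. Of 12 Hedgehog genes, 1 was higher, 9 were lower and 2 were not called (median -0.95). The transducer Smo averaged 14.8 against 28.2 CPM, the activator Gli2 0.871 against 19.2 and the coreceptors Gas1 and Cdon 44.6 against 160.2 and 6.69 against 61.6, while Dhh, a ligand, was higher (5.14 against 0.164); 2 members were higher under 6 alternatives, among them the fit without the CD200R1+ non-MRU library of mouse 2. Smo was not called, and only 5 members were lower, with library size alone. Of 35 TGF-beta and BMP genes, 7 were higher, 14 lower and 14 not called (median 0.02), and 13 were higher and 9 lower with library size alone. Tgfbr2, a receptor, averaged 92.1 against 340.0 CPM, the protease Bmp1 51.3 against 241, Fstl1 385 against 3255 and Gdf10 2.01 against 94.4, all lower, whereas Id4 (58.5 against 4.18), Id1 (691 against 179.7), Inhbb (22.4 against 1.3) and Ltbp2 (109.9 against 8.44) were higher. Once the CD200R1+ non-MRU library of mouse 2 was removed, the log2 fold changes were 5.42 for Dll4, 5.57 for Dhh and 4.54 for Ltbp2. Removing the CD200R1+ non-MRU library of mouse 5 gave a log2 fold change of 6.76 for Jag2. Without the remaining MRU library of mouse 2, the log2 fold change was -6.27 for Gdf10.

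Hox genes, which keep a record of position along the body axis, moved in both directions. Of 33 members, 21 passed the filter, and of those 9 were higher, 8 lower and 4 not called (median log2 fold change 1.62). All 6 tested members of the HoxC cluster were lower: Hoxc10 read 2.14, 3.84, 2.47, 2.58 and 0.584 CPM against 25.5, 32.7, 35.4, 34.4 and 27.4 (log2 fold change -3.73 ± 0.43 (SE), adjusted p = 3.40e-07), and Hoxc4, Hoxc5, Hoxc6, Hoxc8 and Hoxc9 averaged 0.888 against 3.77, 0.937 against 4.46, 0.94 against 8.36, 1.99 against 13.3 and 2.07 against 17.4 CPM. From the other clusters Hoxa9 and Hoxa10 were lower too (2.65 against 12 and 1.81 against 9.78 CPM). Higher were Hoxd8 (13.4 against 1.89 CPM), Hoxd9 (4.85 against 1.1), Hoxa7 (12 against 3.05), Hoxb4 (2.98 against 0.559) and Hoxb9, which read 5.08, 7.83, 2.8, 4.13 and 4.17 CPM against 0.109, 0, 0, 0.201 and 0, a ratio of 79.1 (exact 95% interval 26.8 to 386) on 3 counts. Levels of these genes were low on both sides, so a few counts set them. Hoxa2, called higher, lost the call with no filter, without any single remaining MRU library and without the CD200R1+ non-MRU library of mouse 2, 3, 5 or 6. Hoxb7 lost it without the remaining MRU library of mouse 3 or the CD200R1+ non-MRU library of mouse 4. Hoxb6, not called, was called higher with DESeq2, voom and the block in these libraries alone, among others. Leaving out the CD200R1+ non-MRU library of mouse 5 gave a log2 fold change of 7.08 for Hoxb9. With the remaining MRU library of mouse 2 left out, the log2 fold change was -2.87 for Hoxc4.

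Vessel genes were higher in the remaining MRU. Of 24 endothelial markers, 21 were higher, 0 lower and 3 not called (median log2 fold change 4.47), with Lyve1, Prox1 and Ramp2 not called. Lyve1, shared by lymphatic vessels and macrophages, was called lower without the CD200R1+ non-MRU library of mouse 5 or 6 (log2 fold change -1.81 in both), and Prox1 higher without that of mouse 2 (1.56). Their summed level was 2865, 4185, 3704, 3561 and 3701 CPM in the remaining MRU of mice 2 to 6, 621, 647, 588, 620.4 and 406 in the CD200R1+ non-MRU and 142 to 466 in the CD200+CD200R1+ MRU, and no marker was at 0 in all libraries of a side. Pecam1 (CD31), the antigen of the depletion kit, read 367, 574, 502, 529 and 458 CPM against 24.8, 18.1, 10.7, 9.25 and 5.89 (log2 fold change 5.15 ± 0.44 (SE), adjusted p = 2.92e-09). Emcn, a capillary and venous sialomucin, read 199, 361, 279.5, 317 and 291 CPM against 1.31, 1.04, 0, 0.402 and 0.102 (log2 fold change 9.01 ± 0.78 (SE), adjusted p = 4.28e-09). Mouse 2 had the lowest remaining MRU library for both. Flt1, Cdh5 and Plvap, a VEGF receptor, the endothelial cadherin and a capillary protein, averaged 300.1 against 1.61, 162 against 3.72 and 478 against 111 CPM. Of the endothelial markers, 21 of 24 were also higher than in the CD200+CD200R1+ MRU, where 6.64% of all genes tested were higher.

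Most adipocyte genes and many mural genes were higher beside the vessel genes. Cd36, a fatty acid transporter shared by adipocytes and capillaries, read 1235, 1407, 1337, 1486 and 1289 CPM against 143, 189, 61.7, 99.8 and 203 (log2 fold change 3.28 ± 0.25 (SE), adjusted p = 7.19e-10), and Fabp4, the lipid carrier of the same cells, read 3945, 5462, 3995, 5673 and 4716 against 1733, 1393, 495, 1189 and 1444 (log2 fold change 1.93 ± 0.31 (SE), adjusted p = 2.96e-05). Of 19 adipocyte genes, 14 were higher, 2 lower and 3 not called (median log2 fold change 2.66), with summed levels of 5720 to 7850 CPM in the remaining MRU and 3440 to 6630 in the CD200R1+ non-MRU, which overlap. The lower count was 1 with library size alone. Adipoq and Cfd, secreted by fat cells, averaged 4.39 against 0.105 and 25 against 0.716 CPM. Lpl, lipoprotein lipase, went strongly the other way, at 119, 157, 70.2, 122 and 65.2 CPM against 4425, 4184, 2698, 4430 and 4633 (log2 fold change -5.25 ± 0.31 (SE), adjusted p = 1.28e-11), and Pparg was not called (69.5 against 58.3, adjusted p = 0.469). Of 18 pericyte and vascular smooth muscle genes, 10 were higher, 1 lower and 7 not called (median 1.33). Several of the higher ones, such as Myh11, are also myoepithelial, and Rgs5, a pericyte marker, averaged 484 against 6.28 CPM, whereas Pdgfrb, another, was lower. The lower count was 2 without the CD200R1+ non-MRU library of mouse 2 or 4 and 3 without that of mouse 3. Of these 18 genes, 14 were also higher than in the CD200+CD200R1+ MRU, against 2 of the 19 contraction genes. Over all genes tested the share was 6.64%. The part of endothelial cells in these differences was not tested. A fit that lacked the CD200R1+ non-MRU library of mouse 3 gave log2 fold changes of 6.96 for Adipoq and 7.10 for Rgs5. When the CD200R1+ non-MRU library of mouse 5 was left out, the log2 fold change was 6.69 for Cfd.

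**Figure D4:**
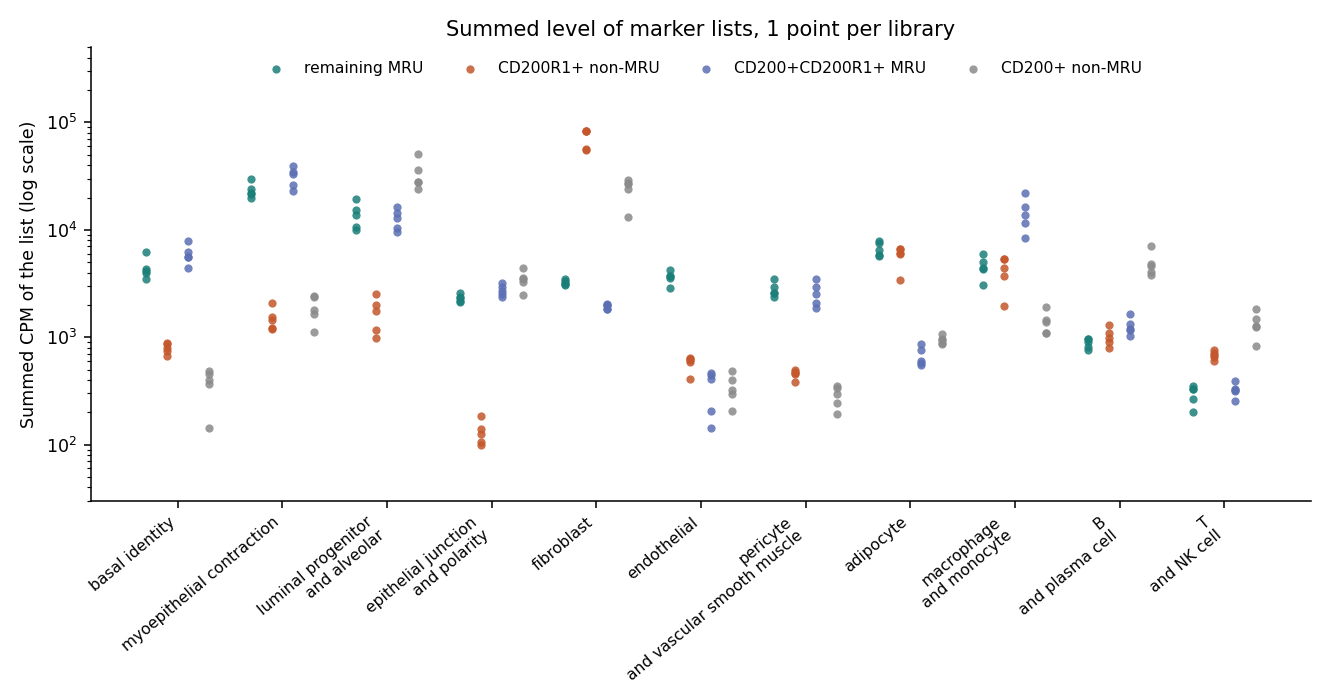
Summed CPM (log scale) of 11 marker lists in each library of the 4 populations, 1 point per library. Endothelial sums in the remaining MRU (green) lie between 2870 and 4180, above those of the other populations, fibroblast sums in the CD200R1+ non-MRU (orange) lie between 55400 and 83300, and macrophage sums of these populations overlap.

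Immune genes showed no common direction. Of 30 macrophage and monocyte genes, 6 were higher, 8 lower and 16 not called (median log2 fold change -0.30), and their summed levels overlapped, at 3050 to 5960 CPM in the remaining MRU and 1950 to 5390 in the CD200R1+ non-MRU. The general markers Adgre1 (F4/80), Cd68 and Itgam were not called (34.4 against 40.5, 86.9 against 98.8 and 6.38 against 6.72 CPM). Among the members called higher, Retnla read 2051, 2431, 1935, 1664 and 712 CPM against 494, 286, 191, 61.6 and 9.03 (log2 fold change 3.08 ± 0.65 (SE), adjusted p = 0.000536), with mouse 6 lowest on both sides, and Cd209f, Folr2 and Timd4 averaged 63 against 6.26, 80.7 against 17.4 and 21.6 against 5.02. Mrc1 (CD206) and Lyve1, other markers of resident macrophages, were not called (121 against 70.7 and 18 against 51.5 CPM, adjusted p = 0.1 and 0.0796). Mrc1 was called higher without the CD200R1+ non-MRU library of mouse 2 (log2 fold change 1.09), with library size alone (1.14), with voom (1.01) and with the replicate block in these libraries alone (0.99). Cd209f has close paralogs, so its reads are uncertain. C1qa, of the first complement component, was lower (195 against 379 CPM), a call lost with library size alone, and so were Ctss (164 against 429) and Trem2 (7.16 against 27.6). The count of lower members was 4 with library size alone. C1qb and C1qc, also called lower, lost the call with library size alone and with the replicate block in these libraries alone. Both also lost it without the mouse 2, 4, 5 or 6 library of the remaining MRU or the mouse 2, 3 or 5 library of the CD200R1+ non-MRU. For C1qb it was lost as well with voom, with either other filter, with the block and in these libraries alone. B-cell genes were higher for 12 of 16 tested (median 2.11): Cd79a averaged 90.4 against 21.9 CPM, Ms4a1 (CD20) 26.6 against 6.24 and Igkc 236 against 42.5, while Sdc1 and Ebf1, also expressed outside B cells, were lower (69.7 against 320.3 and 172 against 473). Of 22 T and NK genes, 3 were higher, 7 lower and 12 not called; the higher count was 1 with voom and in the fits to these libraries alone, and the lower count was 4 under 7 of the 19 alternatives, among them those without the mouse 2 or 4 library of the remaining MRU and the mouse 2 or 3 library of the CD200R1+ non-MRU. Cd3e was lower (17.6 against 51.9 CPM). The fit without the CD200R1+ non-MRU library of mouse 2 gave a log2 fold change of 3.68 for Retnla.

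Antigen presentation genes did not hold one call. Of 11 MHC class II genes, 5 were higher, 5 lower and 1 not called, but the lower count was 0 with library size alone and 1 to 3 under 10 other alternatives. These included the fits without the mouse 2, 4 or 6 library of the remaining MRU and those without the mouse 2, 3 or 5 library of the CD200R1+ non-MRU. The higher count was 2 in the fit to these libraries alone and without the mouse 2 or 6 library of the CD200R1+ non-MRU, and 3 without the mouse 5 library of the remaining MRU. Cd74, the invariant chain, averaged 3777 ± 871 CPM against 6497 ± 2638 (SD, n = 5; log2 fold change -0.78 ± 0.24 (SE), adjusted p = 0.0108), a call lost with library size alone. H2-Oa and H2-Ob, known from B cells, were higher (17.6 against 5.19 and 21.3 against 8.36 CPM). Dendritic cell genes were called higher for 6 of 12, Siglech and Flt3 among them (35.2 against 8.69 and 5.62 against 0.989 CPM), and granulocyte and mast cell genes for 1 of 8, the single one being Kit; 3 were called without the CD200R1+ non-MRU library of mouse 4. Complement genes were lower for 13 of 21 and higher for 2 (median -0.96): the serpin Serping1 averaged 221 against 4328 CPM, the proteases C1s1 and C1ra 51.7 against 503 and 16.1 against 232 and C3 64.8 against 368, whereas Cd59a, a membrane inhibitor, was higher (123 against 51.3). The lower calls of C1qa, C1qb and C1qc were lost with library size alone, and those of C1qb and C1qc under further alternatives given with the macrophage genes. Of 31 chemokines and cytokines, 6 were higher, 10 lower and 15 not called. Among those lower, Ccl2, which draws monocytes, read 502, 569, 609, 479 and 457 CPM against 7681, 6291, 4798, 4519 and 3989 (log2 fold change -3.38 ± 0.35 (SE), adjusted p = 6.65e-08), Ccl11, eotaxin, averaged 126 ± 54.9 against 1379 ± 198 (SD, n = 5; log2 fold change -3.45 ± 0.31 (SE), adjusted p = 8.19e-09), and Cxcl1 and Cxcl12 averaged 1552 against 6060 and 254 against 730.2. Cxcl14 led those higher in level (1097 against 313 CPM), and Ccl6 was also higher (207 against 89.7), a call that 7 of the single libraries, named with the CD200+CD200R1+ MRU below, end when left out.

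**Figure D5:**
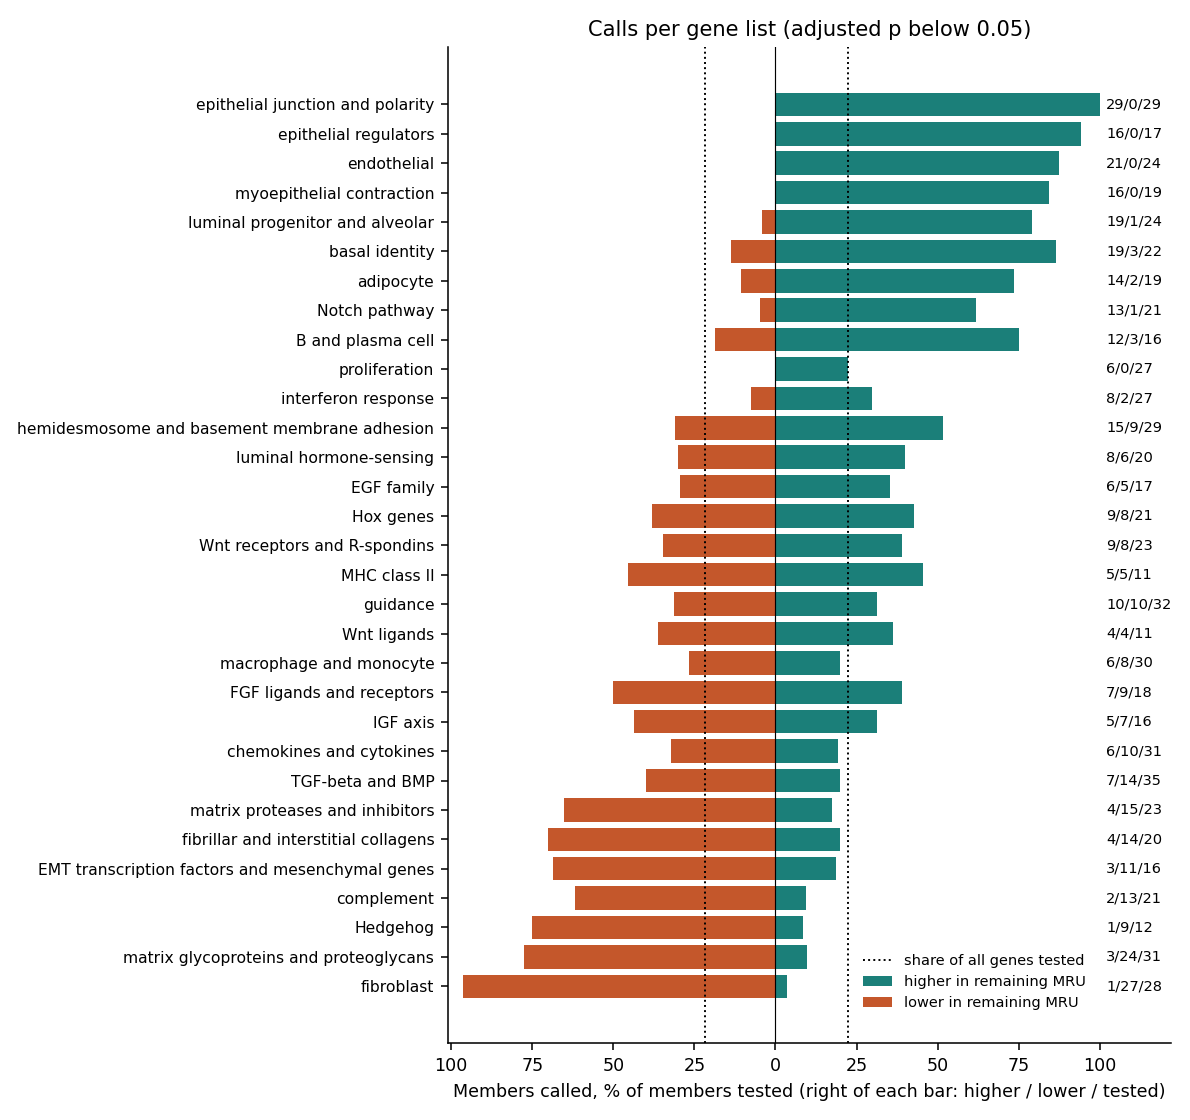
Percent of tested members called higher (green, to the right) and lower (orange, to the left) in the remaining MRU for 31 gene lists, with the counts of higher, lower and tested members beside each bar and dotted lines at the shares over all genes (22.4% and 21.6%). Junction and fibroblast lists fill opposite ends, and lists such as MHC class II (5 higher and 5 lower of 11) lie between.

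In the list of epithelial-mesenchymal transition factors and mesenchymal genes, 11 of 16 were called lower and 3 higher (median log2 fold change -2.13). The transcription factors Twist1, Zeb1 and Prrx1 averaged 2.65 against 66.2, 51.2 against 134 and 19.4 against 226 CPM, and vimentin (Vim) 1310 against 5906. Snai2 (Slug), which basal mammary cells also express, was higher (76 ± 14.2 CPM against 40 ± 13, SD, n = 5; log2 fold change 0.93 ± 0.24 (SE), adjusted p = 0.00331), and Snai1 was not called. Genes that the field has tied to mammary stem cells were higher for 15 of 24 and lower for 5 (median 1.44); Procr averaged 182 against 46.6 CPM and Sox9 164 against 12.5, whereas Aldh1a1 and Itgb3 were lower (4.64 against 34.9 and 31.4 against 59.2). Hormone and retinoid genes divided 8 to 11 of 23: Vdr, the vitamin D receptor, was higher (52.6 against 2.67 CPM) and Rbp4, the retinol carrier, lower (3.62 against 129). Rbp7, another retinoid-binding protein, averaged 612 against 0.328 CPM. Guidance genes divided 10 to 10 of 32, with Efna1 higher (139.6 against 4.22 CPM) and Slit3 and Epha3 lower (17.8 against 119 and 0.562 against 16.7). Of 14 VEGF and angiopoietin genes, 3 were higher, 4 lower and 7 not called; Pgf was higher (67.8 against 3.12 CPM) and Vegfa lower (99.6 against 235), and the higher count was 6 with library size alone and 5 in the fits with a mouse block. Schwann and neural genes were higher for 9 of 13, and S100b was lower (0.843 against 23.5 CPM). Once the CD200R1+ non-MRU library of mouse 6 was removed, the log2 fold change was 11.49 for Rbp7.

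Proliferation genes were mostly not called: of 27, 6 were higher, 0 lower and 21 not called, and 1 was lower in the fits with a mouse block and in the fit to these libraries alone. Over all genes 22.4% were higher. Mcm7 and Ccne1, called higher, both lost the call without the remaining MRU library of mouse 4 or the CD200R1+ non-MRU library of mouse 2 or 4. Mcm7 also lost it with voom and without the remaining MRU library of mouse 6, and Ccne1 in the fits with a mouse block. Mki67 averaged 20.7 ± 10.5 CPM in the remaining MRU and 17.6 ± 8.97 in the CD200R1+ non-MRU (SD, n = 5; adjusted p = 0.734), and Top2a 23 against 16.6. Ccnd1, cyclin D1, read 65.6, 69.6, 77, 48.1 and 65.1 CPM against 8.17, 6.79, 5.68, 1.51 and 1.32 and was higher without overlap (log2 fold change 3.80 ± 0.40 (SE), adjusted p = 9.11e-08), with the replication genes Mcm3, Mcm4 and Pcna (18.7 against 7.27, 50.7 against 28.4 and 60.5 against 38.3 CPM). Immediate early genes, which rise during dissociation of tissue as well as with signals, divided 8 higher and 5 lower of 26, and 13 and 2 with library size alone. Fos averaged 7570 ± 569.6 CPM against 3787 ± 1076 (SD, n = 5; log2 fold change 1.0 ± 0.16 (SE), adjusted p = 3.16e-05), Ier3 1519 against 505 and Socs3 544 against 235, while Myc (380.4 against 964) and Klf4 (477 against 825) were lower and Jun was not called. Interferon response genes were higher for 8 of 27 and lower for 2, and higher for 14 with library size alone. The lower count was 1 with library size alone and without the remaining MRU library of mouse 2, 3, 5 or 6 or the CD200R1+ non-MRU library of mouse 4 or 6. Ifi44 averaged 16 against 3.52 CPM and Irf9, a factor of the interferon receptor pathway, 73.6 against 44.4, both higher. The 7 tested mitochondrially encoded genes were not called, and all 7 were higher with library size alone. Glycolysis and lipid synthesis genes divided 9 to 8 of 24, the lower count being 2 with library size alone. Aldoc, an aldolase, averaged 26.4 against 0.832 CPM and Hk2, a hexokinase, 42.6 against 703, higher and lower in that order.

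The remaining MRU and the CD200+CD200R1+ MRU differed far less from each other. By the same test 1424 of 17236 genes (8.26%) differed between them, 1144 higher (6.64%) and 280 lower (1.62%) in the remaining MRU. With the mouse as a replicate block, which pairs the libraries of one animal, 1290 were higher and 429 lower. The lower count was 171 without the remaining MRU library of mouse 3 and 164 without that of mouse 4. Each MRU population compared with the same CD200R1+ non-MRU libraries shares those libraries, so only this direct test is given. Genes that differed from both the CD200R1+ non-MRU and the CD200+CD200R1+ MRU were chosen by their fold in the second comparison. Higher than in both were H2-M11, Rbp7, Igf2, Ptprr, Dusp26 and Car7. Rbp7, a retinoid-binding protein, averaged 612 ± 73.1 CPM in the remaining MRU, 8.49 ± 4.26 in the CD200+CD200R1+ MRU and 0.328 ± 0.3 in the CD200R1+ non-MRU (SD, n = 5). Igf2 averaged 0.722 CPM in the CD200+CD200R1+ MRU against 48.2 (log2 fold change 6.03 ± 0.62 (SE), adjusted p = 7.21e-07), and Car7, a carbonic anhydrase, 0.585 against 29.1. Ptprr and Dusp26, phosphatases, averaged 107 and 14.2 CPM in the remaining MRU, and 1.65 and 0.228 in the CD200+CD200R1+ MRU. H2-M11 belongs to a family of near-identical genes and its value is uncertain. Between the others, with a level above the CD200R1+ non-MRU and below the CD200+CD200R1+ MRU, lay Fcna, Hal, Retnla, Cd209b, Rsad2 and Ccl6, most of them known from macrophages. Fcna, a ficolin of resident macrophages, averaged 20.9 ± 7.9 CPM in the remaining MRU, 132 ± 66.5 in the CD200+CD200R1+ MRU and 2.71 ± 2.41 in the CD200R1+ non-MRU (SD, n = 5). Hal averaged 14.7 against 2.4 CPM, remaining MRU first, and 71.2 in the CD200+CD200R1+ MRU. Rsad2 averaged 75.7 against 26 CPM and 339.7 in the CD200+CD200R1+ MRU, and Ccl6 207 against 89.7 and 869.8. Against the CD200R1+ non-MRU the calls of these were close to the threshold (adjusted p = 0.035 and 0.0458, and 0.000752 to 0.0817 and 0.00104 to 0.101 over the alternatives). Rsad2 was not called without the remaining MRU library of mouse 3 or 4 (log2 fold change 1.53 and 1.39) or the CD200R1+ non-MRU library of mouse 3, 4, 5 or 6 (1.28 to 1.58). Ccl6 was not called without the remaining MRU library of mouse 3, 4 or 6 (1.12 to 1.22) or the CD200R1+ non-MRU library of mouse 3, 4, 5 or 6 (1.06 to 1.28). Removing the CD200R1+ non-MRU library of mouse 2 gave log2 fold changes of 7.52 for Car7, 3.68 for Retnla and 3.21 for Cd209b. Without the CD200R1+ non-MRU library of mouse 3, the log2 fold changes were 7.37 for Dusp26 and 3.57 for Fcna. Leaving out the CD200R1+ non-MRU library of mouse 5 gave a log2 fold change of 8.81 for Ptprr. With the CD200R1+ non-MRU library of mouse 6 left out, the log2 fold change was 11.49 for Rbp7.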

How the data were processed

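RNA-seq of 20 libraries, 5 mice in each of 4 sorted populations, was used as the raw counts per Ensembl gene that the authors deposited, per the file headers. The submitters' processing notes name cutadapt, STAR 2.4.2a, HTSeq, DESeq2 and build GRCm38. Not given in the sources used here are their order, the strand setting and the annotation release, so reads of a gene and an overlapping or antisense partner cannot be told apart. The table also holds 34 further value columns, of normalised values and of the authors' comparisons, which were not used. Samples were grouped by their labels, and no pair of libraries of a group agreed within sampling noise (chi-square per gene 12.02 to 83.17).

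Of 46603 genes, 17236 passed filterByExpr. They were fitted in edgeR 4.0.16 (R 4.3.3) on all 20 libraries with population as the only term, TMM scaling and the quasi-likelihood test, with Benjamini-Hochberg adjustment over all genes tested and a threshold of 0.05. The scripts were tested on simulated data first. Standard errors are the log2 fold change over the root of the test statistic. Against 0 counts a fold is a bound, from 3 counts over the population; with 1 to 3 counts it is a ratio with an exact 95% interval, and intervals and floors cover counting error only. Within-mouse counts of direction used log2 ratios with a prior of 0.5 CPM. Numbers pair the libraries because those of one number come from one mouse. Their deviations from the population means correlated at 0.00138 to 0.0961 within a mouse. For mice 2 and 3 the highest correlation with a library of another mouse was larger (0.0461 against 0.037 and 0.0454 against 0.00138). The fit with the mouse as a block is an alternative.

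Genes were named by rule: the 12 called genes with the largest fold and the 8 with the largest difference in mean CPM in each direction, at a mean of at least 10 CPM in the higher population and with no overlap; members of each list by adjusted p, against its majority, or not called; all sort and depletion markers that were tested; and the 6 genes in each direction that differed most from the CD200+CD200R1+ MRU as well. Other list members were named after their values were seen. The members and the 47 gene lists were chosen with earlier results of these data known. Alternatives were DESeq2 1.42.0 size factors, library size alone, and DESeq2 and limma 3.58.1 voom as tools. Further ones were other filters, the 10 libraries alone, the mouse block and leaving out each of those 10 libraries. No CD200+CD200R1+ MRU or CD200+ non-MRU library was left out. Promoter windows came from RefSeq tables on GRCm38.p6.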

Additional observations from a re-analysis of the deposited data

Results flagged for a closer look

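Among 204 groups of 5 libraries examined, of named genes and of list sums, 22 held one library far from the other 4. The rule flags about 1 in 20 groups of independent, normally spread values. Groups with most libraries at 0, and genes and sums from the same libraries, are not such values. The count of 22 can thus not be set against a chance rate. Most of these groups lay in the CD200R1+ non-MRU. There the mouse 5 library was highest for Kera (150.0 CPM), Mmp3 (2260 CPM), Ptprr (2.82 CPM), the summed immediate early list (29000 CPM) and the summed matrix proteases (11000 CPM). The mouse 4 library, which holds added cells of mouse 3, was highest for Crabp1 (416 CPM), Slpi (19.6 CPM), the Wnt receptor sum (668 CPM) and the granulocyte and mast cell sum (83.6 CPM), and lowest for the adipocyte sum (3440 CPM). The mouse 6 library was highest for Bmper (396 CPM), Col9a2 (0.101 CPM, 1 count) and Cytl1 (0.406 CPM), and lowest for the endothelial sum (406 CPM) and the epithelial regulator sum (35.4 CPM). Car7 was highest in mouse 2 (1.74 CPM) and Hal in mouse 3 (5.43 CPM).

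In the remaining MRU, mouse 2 was highest for Kera (0.873 CPM) and the Hedgehog sum (217 CPM), mouse 3 for Igsf21 (0.799 CPM) and the complement sum (1800 CPM), and mouse 6 lowest for Enpep (20.2 CPM). For Col9a2, Cytl1, Igsf21 and Kera in the remaining MRU the high library rests on few counts.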

How the results depend on the processing

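Between the remaining MRU and the CD200R1+ non-MRU, scaling by library size alone moved the calls to 6642 higher and 2258 lower, from 3868 and 3728, since it moved the median gene; the counts under the other alternatives stayed within 1.5 times, at 7065 to 7697 genes called with single libraries left out. With the mouse as a replicate block 7944 genes were called, and 6444 with the block and these libraries alone. Of 417 named genes that were called, 378 were called in all 19 alternatives, 39 lost the call in at least 1 and 0 changed direction. Against the CD200+CD200R1+ MRU, the lower count of 280 became 559 with DESeq2, 442 with voom and 429 with the replicate block. It became 914 in that comparison's libraries alone (2546 in all). It was 164 to 382 with single libraries of the remaining MRU or the CD200R1+ non-MRU left out. No CD200+CD200R1+ MRU library was left out, so dependence on those was not tested. The block with that comparison's libraries alone gave 3679 calls, 2101 higher and 1578 lower. The cause was not tested. The replicate block changed no call of a gene named above beyond those stated beside the genes. At these depths levels near the floor of 0.232 to 0.276 CPM rest on 1 to 3 counts, which limits the fold of genes near 0 in the CD200R1+ non-MRU. That population's mouse 4 library holds cells of 2 mice.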
